A study of Mus musculus with 12 samples.

Results

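The ADAMTS proteases examined were 10 genes, Adamts1, Adamts2, Adamts4, Adamts5, Adamts6, Adamts7, Adamts9, Adamts10, Adamts12 and Adamts15, out of 49315 gene identifiers in each count table. They were chosen by name, with earlier results of these data known, and read in all 12 RNA-seq libraries. These were made from mouse adult fibroblasts (MAFs), which are primary cells cultured from the ears of adult female mice. The 4 groups held 3 libraries each: control (sham irradiated) and senescent (20 Gy of X-rays) cells of wild-type C57BL/6J mice (WT), and control and senescent cells of BMAL1 -/- mice (KO), which lack the clock transcription factor BMAL1. Senescent cells were kept in culture for further weeks after irradiation. Cells of all groups were kept at 3% O2, exposed to 100 nM dexamethasone, a glucocorticoid that aligns cellular clocks, for 2 h, and collected 12 h later. The descriptions do not say whether the libraries of a group came from separate animals or cultures, so each p-value measures the spread between these libraries, which may be technical.

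ADAMTS proteases are secreted zinc metalloproteinases that carry thrombospondin repeats and cut proteins of the extracellular matrix. The aggrecan- and versican-cutting branch comprises Adamts1, Adamts4, Adamts5, Adamts9 and Adamts15, and Adamts2 removes the amino-terminal propeptide of fibrillar procollagens. Adamts6 and Adamts10 act at fibrillin microfibrils, and Adamts7 and Adamts12 are a related pair known to bind and cut cartilage oligomeric matrix protein. Proprotein convertases such as furin activate many of these enzymes, and TIMP3 and alpha-2-macroglobulin inhibit several of them. The endocytic receptor LRP1 removes several of them from the matrix.

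Total counts were 23923030 to 31736083 per library. Levels are given as CPM, counts per 1e6 of a library total that had been TMM-scaled (trimmed mean of M-values), and 3 counts, the floor used for detection, equalled 0.101 to 0.135 CPM. All 10 ADAMTS genes passed the filter on low counts that left 17416 genes, and none was at 0 in any library. A gene is said to have changed, risen or fallen where the p-value of edgeR's quasi-likelihood (QL) test, adjusted over all 17416 genes, was under 0.05, and to be a differentially expressed gene (DEG) where its log2 fold change was also over 1 in size. Unless a unit is given, changes, interactions and differences between genotypes are log2 fold changes with their SE or 95% interval on that scale, and levels are in CPM. Arntl, the gene of BMAL1, was at 29.8 to 37.4 CPM in the 6 WT libraries, at 11.8 to 15.2 CPM in KO control cells and at 25.3 to 27.5 CPM in KO senescent cells, so that every KO library was under every WT library. KO differed from WT by −1.26 in control cells (adjusted p 2e-09, SE 0.09) and by −0.44 in senescent cells (adjusted p 0.000329, SE 0.08), and in KO cells Arntl was 2.02-fold higher with senescence (adjusted p 1.96e-09). Counts are per gene, so whether the reads in KO cells lie outside the deleted part of the gene was not tested. All 9 fibroblast markers had counts in every library (summed level 35253 to 68463 CPM), whereas the summed markers of endothelium, macrophages and keratinocytes stayed under 19.7 CPM. Markers of chondrocytes were abundant, and their values are given beside the genes with which they moved. In these bulk samples fewer cells of a type and less RNA per cell cannot be told apart.

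The ADAMTS genes lay on 8 chromosomes (GRCm38 coordinates from GENCODE). Adamts1 (ENSMUSG00000022893, chromosome 16, 85793827 to 85803113) and Adamts5 (ENSMUSG00000022894, chromosome 16, 85856173 to 85901828) were neighbours on the minus strand, 53.1 kb apart with 0 annotated genes between them. Adamts15 (ENSMUSG00000033453, chromosome 9, 30899155 to 30922452, minus strand) lay 20.1 kb from Adamts8, which is transcribed from the plus strand, again with 0 genes between. Promoter windows of 300 bases ran from 250 before to 50 after the annotated start site. The set of RefSeq windows used here (GRCm38.p6) held 4 of the 10 genes. Of these, 3 are printed because they belong to the most abundant ADAMTS transcript (Adamts1), to one whose senescence response differed between genotypes (Adamts9) and to the one that fell alike in both genotypes (Adamts12).
Adamts1, chr16:85803064-85803363, minus strand: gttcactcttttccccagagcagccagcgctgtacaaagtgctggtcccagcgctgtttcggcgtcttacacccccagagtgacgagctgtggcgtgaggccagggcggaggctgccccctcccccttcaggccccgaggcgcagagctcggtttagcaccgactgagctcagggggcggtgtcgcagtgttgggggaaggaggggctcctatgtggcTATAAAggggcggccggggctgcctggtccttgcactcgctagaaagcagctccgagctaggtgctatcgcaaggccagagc
Adamts9, chr6:92943485-92943784, minus strand: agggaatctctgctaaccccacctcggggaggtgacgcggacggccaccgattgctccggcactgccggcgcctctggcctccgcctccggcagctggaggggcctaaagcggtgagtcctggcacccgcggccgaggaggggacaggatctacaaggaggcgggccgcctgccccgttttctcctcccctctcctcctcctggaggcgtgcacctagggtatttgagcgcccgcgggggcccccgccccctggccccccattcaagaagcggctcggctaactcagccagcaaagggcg
Adamts12, chr15:11064523-11064822, plus strand: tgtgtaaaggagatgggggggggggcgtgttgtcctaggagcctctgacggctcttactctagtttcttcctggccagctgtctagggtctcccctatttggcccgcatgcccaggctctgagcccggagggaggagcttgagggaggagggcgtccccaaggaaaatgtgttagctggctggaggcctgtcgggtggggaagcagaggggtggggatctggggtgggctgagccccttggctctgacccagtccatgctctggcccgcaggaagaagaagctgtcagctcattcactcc
The capitals in the Adamts1 window mark TATAAA, 32 bases before the start site, a motif searched only after the sequences had been seen and present on either strand in 13.6% of 32851 RefSeq windows. The E-box CACGTG, the motif to which the BMAL1 complex binds, was in 7.15% of all windows, and the AP-1 motif TGACTCA, searched on both strands, was in 5.20%. Neither was in the windows of Adamts1, Adamts9, Adamts12 or Adamts2, which says only that these letters are absent from these 300 bases. The Adamts2 window was the richest of the 4 in GC (77.3%, with 41 CpG dinucleotides), and that of Adamts12 the poorest (62.0%, with 7 CpG), against medians of 52.7% and 7 over all windows.

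The genes differed widely in abundance. Scaled by the annotated exon length, Adamts1 was the most abundant in all 4 groups, with a mean of 42.3 ± 6.10 CPM per kb in WT control cells (SD, n = 3), 43.0 ± 1.81 in WT senescent cells, 26.0 ± 0.55 in KO control cells and 31.9 ± 4.22 in KO senescent cells. Adamts5 was next, with means of 21.9, 22.0, 13.2 and 12.1 CPM per kb in the same order of groups, and Adamts2 followed, with 6.10, 6.04, 12.8 and 10.2 CPM per kb. In both KO groups the libraries of Adamts5 and Adamts2 overlapped, so their order there did not exceed the spread. Adamts15 was the least abundant in every group, with means of 0.0871, 0.236, 0.191 and 0.0674 CPM per kb. The remaining neighbours in order that overlapped were Adamts6 and Adamts9 in both WT groups and Adamts7 and Adamts9 in both KO groups.

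The make-up of the summed length-scaled level differed between genotypes. The sum over the 10 genes was 74.0 to 92.0 CPM per kb in WT control cells, 78.9 to 85.4 in WT senescent cells, 68.3 to 75.1 in KO control cells and 59.3 to 77.5 in KO senescent cells. Adamts1 made up 48.2% to 51.8% of this sum in the WT control libraries, 51.6% to 51.8% in WT senescent, 34.8% to 37.2% in KO control and 45.3% to 47.6% in KO senescent libraries. The share of Adamts2 was 6.92% to 8.13% in WT control cells and 17.5% to 18.1% in KO control cells, and the 2 ranges did not overlap.

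**Figure D1:**
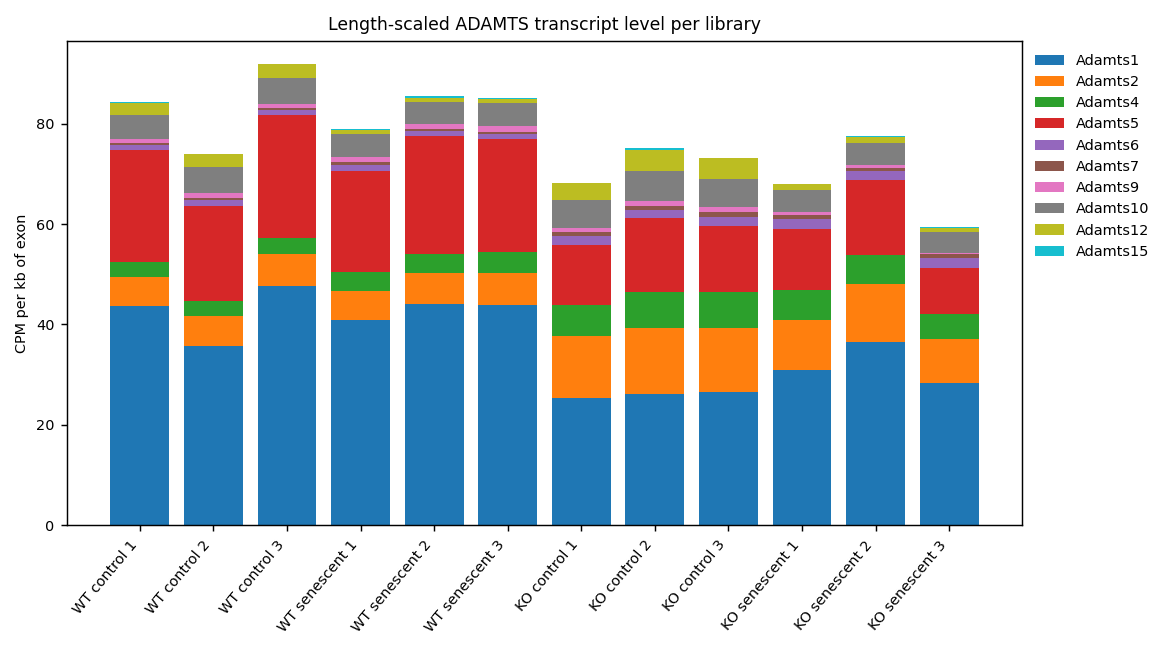
Stacked length-scaled levels (CPM per kb of exon, y axis) of the 10 ADAMTS genes in each of the 12 libraries (x axis). Adamts1 is the largest block in every library, and Adamts2 and Adamts4 form larger blocks in the KO libraries than in the WT libraries.

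WT cells were compared first. Of the 10 genes, 2 rose (Adamts4, Adamts15) and 2 fell (Adamts10, Adamts12) in WT senescent cells, while 29.2% of all genes tested were higher and 27.0% lower. Adamts12 and Adamts15 were DEGs (2 of 10 genes), and 17.4% of all genes were. The median log2 fold change was 0.01 over the 10 genes and 0.02 over all genes.

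In KO cells 1 gene rose with senescence (Adamts1) and 6 fell (Adamts2, Adamts4, Adamts9, Adamts10, Adamts12, Adamts15), against 28.5% of all genes higher and 28.6% lower. Adamts9, Adamts12 and Adamts15 were DEGs, all of them lower in senescent cells, while 18.8% of all genes were DEGs in either direction. The median log2 fold change was −0.35 over the ADAMTS genes and −0.0028 over all genes. For the test of the difference between genotypes, the interaction (the KO response less the WT response, on the log2 scale), 0 of 10 genes were higher and 4 were lower (Adamts2, Adamts4, Adamts9, Adamts15), against 9.24% and 11.7% of all genes. The QL test also gave 0 higher genes at an unadjusted p under 0.05, and DESeq2 gave 0. Adamts9 and Adamts15 passed the DEG threshold in the interaction, where 3.66% of all genes did. Both had already been named by the study, from these same libraries, as decreased in KO senescent cells. Their count is therefore not independent of that earlier result. These comparisons share libraries, since the interaction is built from both responses.

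**Figure D2:**
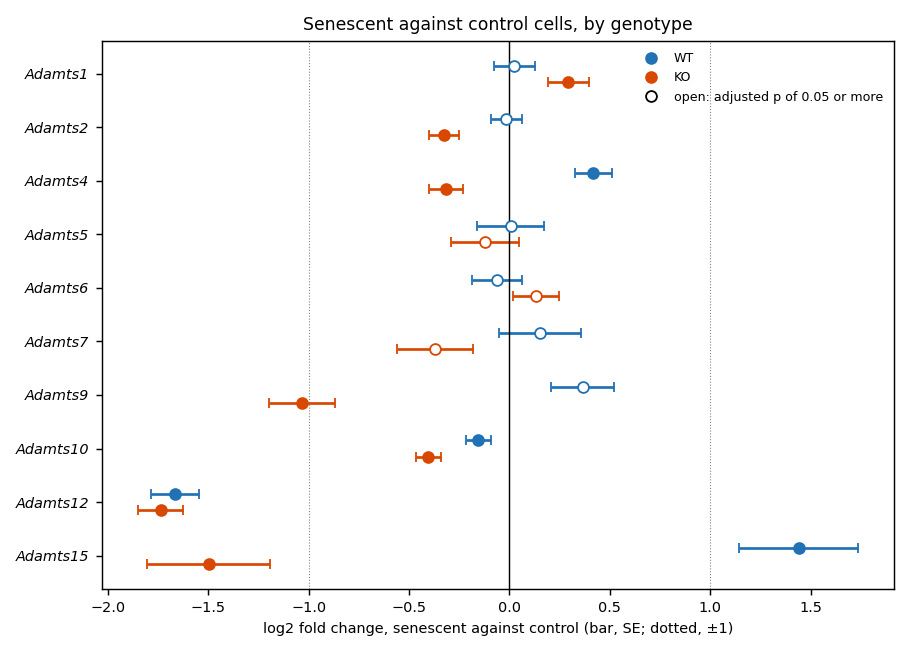
Log2 fold change of senescent against control cells (x axis) for each ADAMTS gene (y axis) in WT (blue) and KO (orange) cells, with bars of 1 standard error and open points where the adjusted p was 0.05 or more. Adamts12 lies near −1.7 in both genotypes, and Adamts15 and Adamts4 lie on opposite sides of 0.

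Adamts15 (ENSMUSG00000033453) had the largest difference in response between genotypes of the 10 genes, and it moved in opposite directions. It stood at 0.724, 0.855 and 1.13 CPM in replicates 1 to 3 of WT control cells, against 2.11, 2.73 and 2.51 CPM in the WT senescent replicates. KO control replicates held 1.72, 2.63 and 1.59 CPM, and KO senescent replicates 0.463, 0.922 and 0.709 CPM. In each genotype the senescent and control libraries did not overlap, with senescent cells above control cells in WT and below them in KO. Adamts15 rose by 1.44 in WT cells (adjusted p 0.000296, SE 0.30), a 2.72-fold change, and fell in KO cells to 0.354 of the control level (adjusted p 0.000253, SE 0.30 and 95% interval −2.13 to −0.86 on the log2 scale). The interaction was −2.94 (adjusted p 8.17e-05, SE 0.43, 95% confidence interval −3.83 to −2.06). These levels rested on 12 to 81 reads per library, the fewest of the 10 genes.

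Adamts9 (ENSMUSG00000030022, chromosome 6, 92772699 to 92943492, minus strand), a secreted versican- and aggrecan-cutting enzyme with a long array of thrombospondin repeats, fell in KO cells. WT control replicates 1 to 3 held 11.2, 14.7 and 11.4 CPM, and WT senescent replicates 15.9, 15.8 and 16.3 CPM. In KO control cells the values were 12.2, 16.5 and 15.5 CPM, and in KO senescent cells 7.56, 8.87 and 5.20 CPM. KO senescent libraries were thus the lowest of all 12, and the other 3 groups lay within 11.2 to 16.5 CPM. The fall in KO cells was to 0.489 of the control level (log2 fold change −1.03, adjusted p 4.67e-05, SE 0.16), and the interaction was −1.40 (adjusted p 0.000507, SE 0.23). In WT cells the log2 fold change was 0.36 (adjusted p 0.0603, SE 0.16), with senescent libraries above control libraries and a 95% interval of 0.03 to 0.70. This response passed without WT control replicate 2 (0.50, adjusted p 0.0176), and also without KO control replicate 1, KO senescent replicate 2 or KO senescent replicate 3 (0.36 in each, adjusted p-values 0.0133 to 0.0363). The KO change was no longer past the DEG threshold without the second KO control library (replicate 2, −0.95) or the third KO senescent library (replicate 3, −0.84), and in both it still passed the adjusted p. The gene overlaps 2 antisense genes, A730049H05Rik and Gm15737, and the sources do not say whether counting used strand.

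Adamts4 (ENSMUSG00000006403, chromosome 1, 171250421 to 171260637, plus strand), a major aggrecan-cutting enzyme of cartilage, also moved in opposite directions, by less. WT control cells held 13.9, 14.2 and 15.2 CPM, against 18.7, 18.8 and 20.3 CPM in WT senescent cells, and KO cells held 29.6, 35.0 and 34.6 CPM as controls and 28.5, 27.9 and 23.4 CPM when senescent. Every KO library was above every WT library, and the gap between genotypes was narrower in senescent cells. The change with senescence was 0.42 in WT (adjusted p 0.000553, SE 0.09) and −0.31 in KO cells (adjusted p 0.00332, SE 0.08), and the interaction was −0.73 (adjusted p 0.00035, SE 0.12).

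Adamts12 (ENSMUSG00000047497, chromosome 15, 11064790 to 11349231, plus strand) fell with senescence in both genotypes, more than any other of the 10 genes. The control levels of 28.0, 28.3 and 29.5 CPM in WT cells became 8.50, 9.43 and 9.07 CPM in senescent cells. In KO cells the control levels were 36.4, 46.8 and 45.9 CPM and the senescent levels 14.2, 14.4 and 10.2 CPM. The groups did not overlap in either genotype, and all senescent libraries were under 14.5 CPM. Senescent cells retained 0.315 of the control level in WT (log2 fold change −1.67, adjusted p 8.71e-10, SE 0.12) and 0.300 in KO cells (−1.74, adjusted p 2.14e-10, SE 0.11). The difference between genotypes in this response was −0.07 (adjusted p 0.809, 95% interval −0.42 to 0.27).

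Smaller changes were found for the remaining genes. Adamts10 (ENSMUSG00000024299), at 33.3 to 48.5 CPM over all libraries, fell by 0.40 on the log2 scale in KO cells (adjusted p 1.23e-05, SE 0.06) and by 0.15 in WT cells (adjusted p 0.0432, SE 0.06). The WT change did not pass when WT control replicate 2 or 3, any of the WT senescent replicates or KO senescent replicate 1 was left out, with log2 fold changes of −0.12 to −0.18 and adjusted p-values of 0.0508 to 0.152. Its interaction was −0.25 (adjusted p 0.0519) and passed without WT control replicate 3 (0.0344) or KO control replicate 1 (0.0466). Adamts2 (ENSMUSG00000036545) fell by 0.33 in KO cells (adjusted p 0.000742, SE 0.07) and changed by −0.02 in WT cells (adjusted p 0.882). Its interaction of −0.31 (adjusted p 0.0419, SE 0.11) passed narrowly, and it was lost when any of 8 libraries was left out (WT control 1 or 2, WT senescent 2 or 3, KO control 2 or 3, KO senescent 1 or 3; −0.22 to −0.31, adjusted p-values 0.0763 to 0.108) and under DESeq2's test (adjusted p 0.0646).

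Adamts1, an early described member known from inflammation and ovulation, rose by 0.29 on the log2 scale in KO cells (adjusted p 0.0272, SE 0.10), from 135, 138 and 140 CPM in control replicates 1 to 3 to 163, 194 and 150 CPM in senescent replicates. This change did not pass without any 1 of the KO control replicates or without KO senescent replicate 2, with values of 0.18 to 0.30 and adjusted p-values of 0.0595 to 0.107. In WT cells it changed by 0.02 (95% interval −0.20 to 0.24), and the interaction was 0.27 (adjusted p 0.222), which passed without WT control replicate 2 (0.38, adjusted p 0.0188). Adamts5, the main aggrecan-cutting enzyme of mouse cartilage, did not pass in either genotype (WT 0.01, 95% interval −0.37 to 0.39, and KO −0.12, 95% interval −0.51 to 0.26). Adamts6 did not pass either (−0.06 and 0.13), nor did Adamts7 (0.15 and −0.37), whose KO change had an adjusted p of 0.102 with all libraries and 0.0484 without KO senescent replicate 1.

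**Figure D3:**
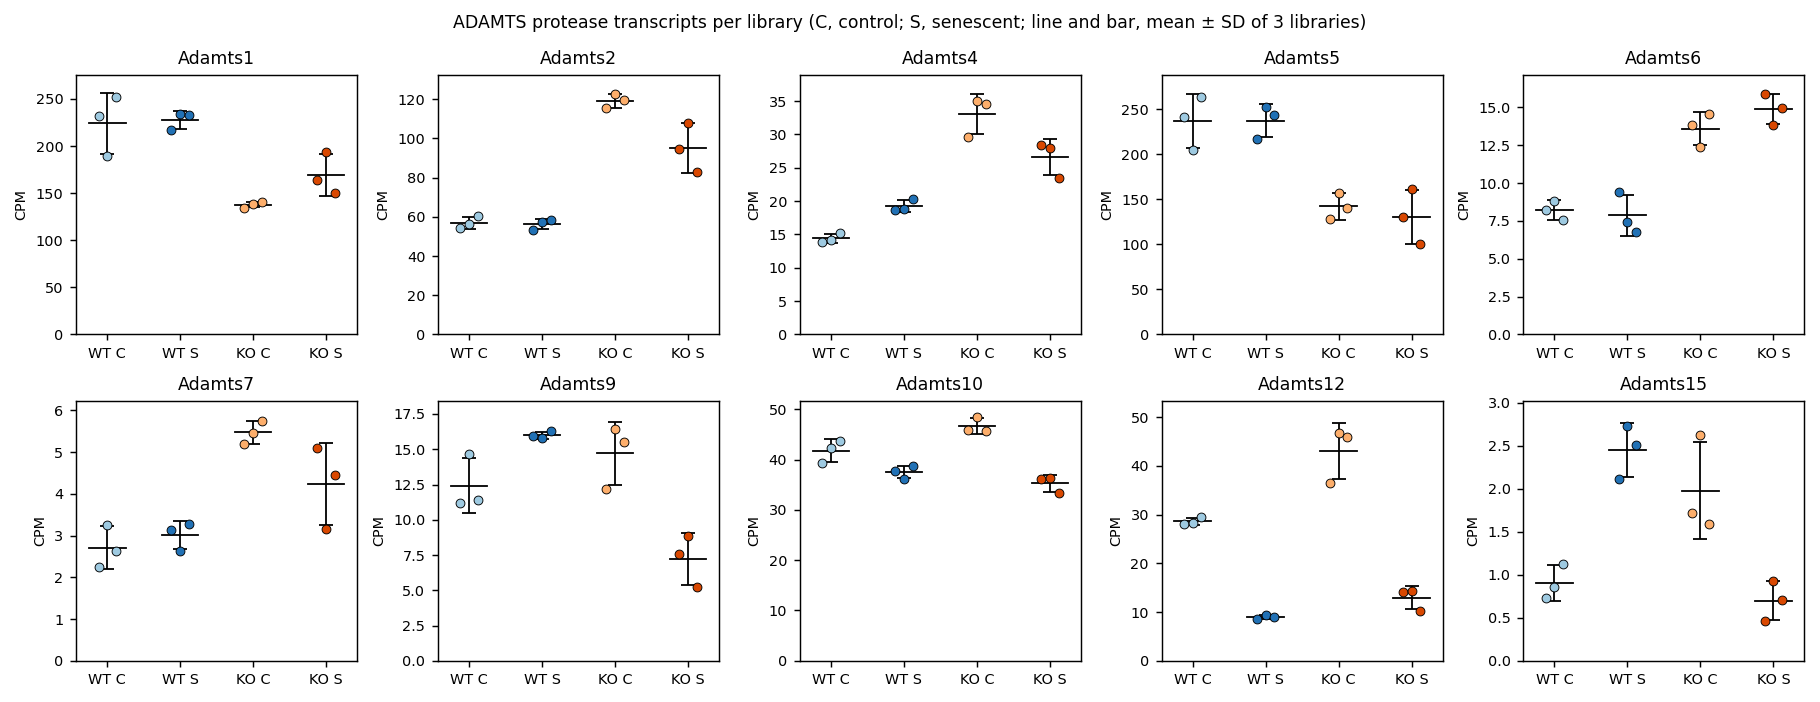
Level of each ADAMTS gene in CPM (y axis, from 0) by group (x axis, C for control and S for senescent), with 1 point per library and the mean ± SD of 3 libraries. Adamts5 is lower in all KO libraries than in all WT libraries, Adamts2, Adamts4 and Adamts6 are higher, and Adamts15 rises in WT and falls in KO cells.

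KO and WT cells were then compared within each state. Each genotype was deposited as its own table, so genotype and any unequal handling of the tables cannot be told apart here. A shift shared by all libraries of a genotype drops out of the interaction. In control cells 6 of the 10 genes were higher in KO (Adamts2, Adamts4, Adamts6, Adamts7, Adamts12, Adamts15) and 2 were lower (Adamts1, Adamts5), against 8.07% of all genes higher and 4.96% lower. Adamts2, Adamts4, Adamts7 and Adamts15 were DEGs, 4 of 10 genes where 2.54% of all genes were. The median log2 fold change was 0.66 over the ADAMTS genes and 0.01 over all genes. In senescent cells 4 genes were higher in KO (Adamts2, Adamts4, Adamts6, Adamts12) and 4 lower (Adamts1, Adamts5, Adamts9, Adamts15), against 11.9% and 11.8% of all genes, and Adamts9 and Adamts15 were DEGs, a call made for 3.48% of all genes. The median there was 0.19, against −0.02 over all genes.

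Adamts2, the procollagen N-proteinase, was higher in KO cells in both states. It stood at 54.5, 56.1 and 60.3 CPM in replicates 1 to 3 of WT control cells and at 53.5, 57.2 and 58.4 CPM in WT senescent replicates. In KO cells it was at 116, 123 and 120 CPM in control replicates and at 94.7, 108 and 82.8 CPM in senescent replicates. The 6 KO libraries all lay above the 6 WT libraries. Adamts2 was 2.09-fold higher in KO control cells (log2 fold change 1.07, adjusted p 7.05e-09, SE 0.07) and 1.69-fold higher in KO senescent cells (0.76, adjusted p 5.54e-07, SE 0.07). For Adamts4 the same comparisons gave 2.29-fold (1.20, adjusted p 7.05e-09, SE 0.09) and 1.38-fold (0.47, adjusted p 0.000447, SE 0.09).

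The neighbouring genes Adamts1 and Adamts5 were lower in KO cells. Adamts1 was at 232, 189 and 252 CPM in WT control cells and at 217, 234 and 233 CPM in WT senescent cells, above each KO value except that the lowest WT control library (189) was under the highest KO senescent library (194). The log2 fold change between KO and WT was −0.70 in control cells (adjusted p 0.000592, SE 0.10) and −0.43 in senescent cells (adjusted p 0.00811, SE 0.10). Adamts5 measured 241, 205 and 264 CPM in WT control cells and 217, 252 and 244 CPM in WT senescent cells, and KO cells held 128, 158 and 141 CPM as controls and 131, 161 and 101 CPM when senescent. All 6 KO libraries were under the WT libraries, by −0.73 in control cells (adjusted p 0.0221, SE 0.17) and by −0.86 in senescent cells (adjusted p 0.00578, SE 0.17). The control difference did not pass without WT control replicate 1 or 3 or KO control replicate 1 or 3 (−0.64 to −0.72, adjusted p-values 0.0685 to 0.0799). Over the 12 libraries Pearson's r of log2 CPM was 0.89 between Adamts1 and Adamts5, a description in which the libraries of a group are not independent points. The highest r of the 45 pairs was 0.93, between Adamts2 and Adamts4, and the lowest was −0.94, between Adamts5 and Adamts6.

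Of the microfibril genes and the Adamts7 and Adamts12 pair, Adamts6 and Adamts12 were higher in KO cells in both states, Adamts7 in control cells, and Adamts10 passed in neither. Adamts6 (ENSMUSG00000046169), at 6.75 to 9.39 CPM in WT and 12.4 to 15.9 CPM in KO libraries, was 1.65-fold higher in KO control cells (adjusted p 0.0003) and 1.89-fold higher in KO senescent cells (adjusted p 9.4e-06). Adamts7 (ENSMUSG00000032363), which overlaps the antisense gene Tbc1d2b, was at 2.25 to 3.26 CPM in WT control cells and 5.20 to 5.75 CPM in KO control cells. Its difference in control cells was 1.01 (adjusted p 0.00137, SE 0.20), and it was under 1 without WT control replicate 1 (0.89), WT control replicate 3 (0.99) or KO control replicate 3 (0.98). In senescent cells Adamts7 differed by 0.49 (adjusted p 0.0746), and by 0.66 without KO senescent replicate 2 (adjusted p 0.0201). Adamts12 was higher in KO cells by 0.59 on the log2 scale in control (adjusted p 0.000981, SE 0.11) and by 0.52 in senescent cells (adjusted p 0.00473, SE 0.12). Adamts10 did not pass in control (0.16, 95% interval 0.03 to 0.29) or senescent cells (−0.09, 95% interval −0.22 to 0.04).

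Adamts15 was higher in KO control cells and lower in KO senescent cells, and Adamts9 was lower in KO senescent cells. Adamts15 was 2.21-fold higher in KO control cells (1.15, adjusted p 0.0144, SE 0.30) and at 0.288 of the WT level in KO senescent cells (−1.80, adjusted p 0.000147, SE 0.30). The control difference did not pass without WT control replicate 1 (1.01, adjusted p 0.0794) or KO control replicate 2 (0.88, adjusted p 0.117). Adamts9 differed by 0.24 in control cells (adjusted p 0.362, 95% interval −0.09 to 0.58) and by −1.15 in senescent cells (adjusted p 7.95e-05, SE 0.16), or by −0.96 without KO senescent replicate 3.

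**Figure D4:**
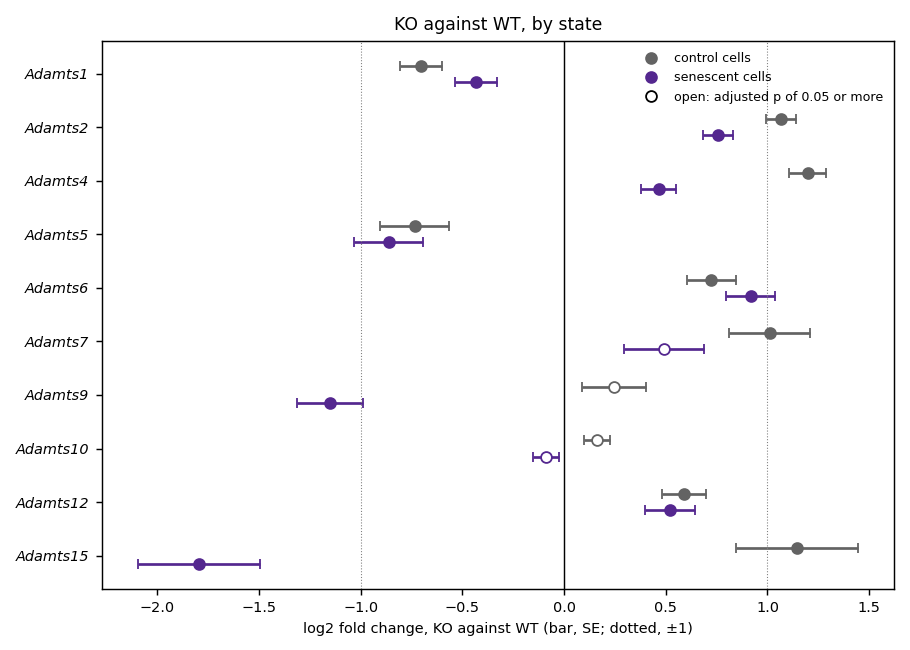
Log2 fold change of KO against WT (x axis) for each ADAMTS gene (y axis) in control cells (grey) and senescent cells (purple), with bars of 1 standard error and open points where the adjusted p was 0.05 or more. Adamts1 and Adamts5 lie below 0 and Adamts2, Adamts4, Adamts6 and Adamts12 above 0 in both states, and Adamts15 changes side.

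The genes whose pattern over the 12 libraries was most like that of Adamts9 were Bicc1 (Pearson's r 0.99), Osmr (0.97) and Dhrs3 (0.97), out of 10945 candidates that averaged 5 CPM or more. For Adamts15 they were Tapbp (0.93), Fbxl2 (0.92) and Chst2 (0.92), out of 10946. These values describe likeness over libraries that share groups. Between Adamts9 and Adamts15 themselves r was 0.78.

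Chondrocyte markers moved with senescence as well. The summed level of 14 markers was 8047 to 10070 CPM in WT control cells, 2182 to 2519 in WT senescent, 5312 to 7391 in KO control and 700.0 to 803 in KO senescent cells. Most of this sum was Col2a1 and Acan, which are also among the substrate genes below. Their means in WT cells were 4954 and 2045 CPM in control and 1378 and 430 CPM in senescent cells. In KO cells the means were 3031 and 2077 CPM in control and 447 and 147 CPM in senescent cells. Of the 13 markers tested, 13 fell with senescence in each genotype, against 27.0% of all genes in WT and 28.6% in KO cells. In the interaction 11 were lower (11.7% of all genes), in KO control cells 4 (4.96%) and in KO senescent cells 12 (11.8%). The untested marker, Matn1, went the other way with senescence, on few reads. It had 0 counts in all WT control libraries, 5 to 12 in WT senescent, 0 to 1 in KO control and 7 to 9 in KO senescent libraries. In KO cells, where the 13 tested markers fell, Adamts2, Adamts4, Adamts9, Adamts10, Adamts12 and Adamts15 also fell and Adamts1 rose. In WT cells, where they fell too, Adamts10 and Adamts12 fell and Adamts4 and Adamts15 rose. The part of chondrocyte markers in the ADAMTS results was not tested. Of 6 mural cell markers, 5 rose with senescence in each genotype (median log2 fold change over the 6 of 1.84 in WT and 1.61 in KO cells) and 1, Cspg4, fell. Of all genes, 29.2% rose in WT and 28.5% in KO cells. In either state 4 mural markers were higher in KO, against 8.07% of all genes in control and 11.9% in senescent cells. The summed level of the 6 markers, 503 to 525 CPM in WT control, 267 to 279 in WT senescent, 439 to 502 in KO control and 319 to 321 in KO senescent cells, was mostly Cspg4 (means of 501, 213, 451 and 233 CPM), and so moved unlike most of the list. The part of mural markers in the ADAMTS results was not tested.

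**Figure D5:**
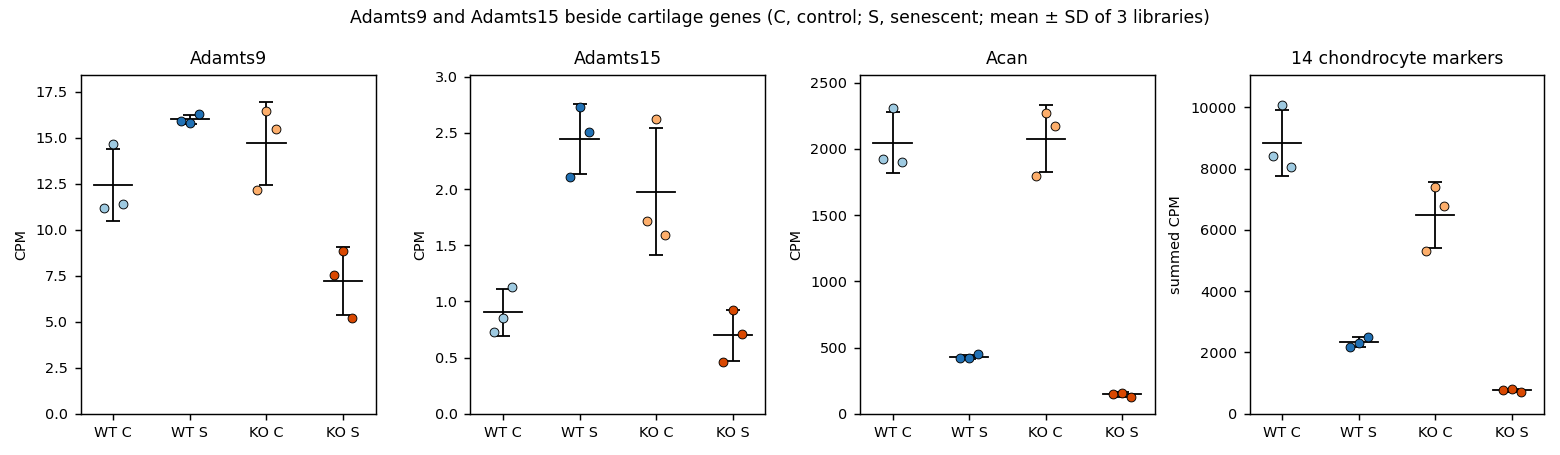
Levels of Adamts9, Adamts15 and Acan in CPM and the summed CPM of 14 chondrocyte markers (y axes, from 0) by group (x axis), with 1 point per library and the mean ± SD of 3 libraries. Acan and the marker sum, of which Acan is a part, are lower in senescent cells of both genotypes, while Adamts15 is higher in WT senescent than in WT control cells.

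The partners of the pathway were examined as a list of 38 further genes, of which 36 passed the filter. In WT cells 14 rose and 15 fell with senescence, against 29.2% and 27.0% of all genes. In KO cells 11 rose and 16 fell, against 28.5% and 28.6%. In the interaction 3 were higher and 15 lower, against 9.24% and 11.7% of all genes. In KO control cells 11 were higher and 2 lower than in WT, against 8.07% and 4.96%. In KO senescent cells 8 were higher and 11 lower, against 11.9% and 11.8%. DEGs numbered 18, 15, 7, 1 and 7 in these 5 comparisons, against 17.4%, 18.8%, 3.66%, 2.54% and 3.48% of all genes.

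Among the other ADAMTS genes, Adamts16 was the only one of the 9 that averaged 5 CPM or more and was a DEG. It went from 12.0, 13.0 and 12.2 CPM to 2.93, 3.57 and 3.32 CPM in WT cells and from 32.3, 50.1 and 47.9 CPM to 2.74, 3.23 and 1.22 CPM in KO cells. The fall was larger in KO cells (−4.19, against −1.92 in WT, interaction −2.27, adjusted p 0.00237, SE 0.39). Adamts8, the neighbour of Adamts15, was named after its values had been seen. It had 1, 4 and 0 counts in WT control replicates, 6, 3 and 10 in WT senescent, 1, 1 and 0 in KO control and 24, 10 and 11 in KO senescent replicates, and was thus highest in the group in which the mean of Adamts15 was lowest. In WT cells its mean was higher in senescent (0.230 CPM) than in control cells (0.0677 CPM), the same direction as Adamts15. That WT change did not pass (adjusted p 0.124). In KO cells, where Adamts15 fell, Adamts8 rose by 4.18 (adjusted p 0.000551, SE 0.92), on at most 1 count per control library. Of the ADAMTS-like genes, whose products lack the protease domain, Adamtsl1 rose by 1.86 in WT cells (adjusted p 0.000557) and changed by −0.61 in KO cells (adjusted p 0.122), with an interaction of −2.47 (adjusted p 0.00376, SE 0.44). Adamtsl5 rose alike in both, by 1.36 and 1.45 (interaction 0.09, adjusted p 0.657).

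Substrates of the family mostly fell with senescence. Of 9 substrate genes 6 fell and 1 rose in each genotype. Of all genes, 27.0% fell and 29.2% rose in WT cells, and 28.6% fell and 28.5% rose in KO cells. The substrate genes called were not all the same. Comp rose in WT cells, and Ncan in KO cells, from 2 to 6 counts in control to 15 to 23 in senescent libraries. Bcan fell only in WT and Vcan only in KO cells. Acan, which encodes the cartilage proteoglycan aggrecan, fell from 2045 ± 230 to 430 ± 17.3 CPM in WT cells (SD, n = 3) and from 2077 ± 252 to 147 ± 16.5 CPM in KO cells, with an interaction of −1.57 (adjusted p 5.12e-05, SE 0.15). Vcan, which encodes versican, changed by −0.04 in WT cells (adjusted p 0.792) and fell by 0.49 in KO cells (adjusted p 0.001). The procollagen genes Col1a1, Col1a2, Col2a1 and Col3a1 fell in both genotypes, with −2.06 in WT and −1.66 in KO cells for Col1a1. Comp rose by 0.59 in WT cells (adjusted p 0.0117), changed by −0.29 in KO cells (adjusted p 0.177), and had an interaction of −0.89 (adjusted p 0.0273). The fibrillin genes Fbn1 and Fbn2 fell in both, with log2 fold changes in WT and KO cells of −1.18 and −1.13 for Fbn1 and −1.95 and −3.25 for Fbn2.

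Most inhibitor genes rose. Timp3, the main tissue inhibitor of the aggrecan-cutting branch, measured 1912, 2191 and 1922 CPM in WT control and 3864, 4134 and 3977 CPM in WT senescent replicates, and at 1475, 2128 and 1976 CPM in KO control and 3016, 3295 and 2652 CPM in KO senescent replicates. No senescent library overlapped a control library of its genotype, and Timp3 rose by 0.99 in WT (adjusted p 8.4e-05, SE 0.13) and 0.68 in KO cells (adjusted p 0.0011, SE 0.13). A2m, which encodes alpha-2-macroglobulin, rose by 3.04 in WT and 2.70 in KO cells, reaching 42.4 to 45.0 and 30.7 to 45.2 CPM. Of the 5 inhibitor genes 4 rose in each genotype, against 29.2% of all genes in WT and 28.5% in KO cells. Timp1 fell in WT cells by 0.35 (adjusted p 0.000163). Of the convertases, Pcsk5 rose by 2.81 in WT and 1.35 in KO cells (interaction −1.46, adjusted p 0.0111), Pcsk6 rose by 0.48 in WT cells and changed by 0.03 in KO cells (adjusted p 0.789), and Furin fell by 0.25 in both. Lrp1 rose by 0.60 in WT and 0.36 in KO cells.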

How the data were processed

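The authors extracted RNA from MAFs for 12 libraries, made poly(A) libraries (NEBNext Ultra II) and read them as pairs on an Illumina HiSeq. Per the submitters' processing notes and the study's methods, reads were demultiplexed with bcl2fastq 2.17, trimmed with Trimmomatic 0.36 and mapped with STAR 2.5.2b to GRCm38, and featureCounts counted uniquely mapped reads in exons. The values deposited by the authors were raw counts per gene, in 1 table per genotype with the same 49315 identifiers. The annotation release and the use of strand are not given in the sources used here, so counts of genes that overlap another gene are uncertain, and reads mapping to more than 1 place were dropped. Identifiers were matched to symbols and coordinates in GENCODE M21 (49056 matched).

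Differences were tested with edgeR 4.0.16 under R 4.3.3, and each adjusted p given is from its QL F-test unless another test is named. Genes were kept by filterByExpr (17416), scaled by TMM, and fitted with a robust QL model over all 12 libraries with 1 mean per group, since the groups then share 1 estimate of the spread. P-values of the 5 comparisons were Benjamini-Hochberg adjusted across the 17416 genes. The thresholds were those of the study's methods, which used DESeq2. The SE was the absolute log2 fold change divided by the square root of F. On simulated data the fit recovered 93.3% of 4-fold changes for senescence in KO and 83.5% for the interaction (16944 genes). Smaller changes were not simulated, so these rates do not apply to them. Counts of replicates differed by more than sampling noise, so no library was counted as a duplicate. Floors and intervals cover counting error and the spread between these libraries only, since the reads carry no molecular identifiers. Alternatives were DESeq2 1.42.0, its size factors, no filter, only the groups compared, replicate blocks and leaving out each library.

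Named genes were the 10 ADAMTS genes, Arntl, and from a list of 38 partners those at 5 CPM or more on average that were DEGs in any comparison, plus Timp3, Acan, Vcan, Col1a1, Furin and Lrp1. Timp1, Adamts8, Ncan and Bcan were named after their values had been seen. The 3 most similar genes over the libraries were named for the ADAMTS genes with the 2 largest interactions, from Pearson correlations of log2 CPM (prior count 2). The genes and lists were chosen with earlier results of these data known. Promoter windows came from RefSeq (GRCm38.p6).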

Additional observations from a re-analysis of the deposited data

Results flagged for a closer look

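The senescence responses of 4 ADAMTS genes differed between KO and WT cells by the test of the difference itself. The KO response less the WT response, on the log2 scale, was −0.31 for Adamts2 (edgeR QL adjusted p 0.0419), −0.73 for Adamts4 (0.00035), −1.40 for Adamts9 (0.000507) and −2.94 for Adamts15 (8.17e-05). Control and senescent libraries of Adamts4 and of Adamts15 did not overlap in either genotype and were ordered oppositely in WT and KO cells. The Adamts2 difference passed with all libraries only narrowly and was lost without any 1 of 8 libraries.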

How the results depend on the processing

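Over the 10 ADAMTS genes and Arntl, 957 values from other settings were compared with those reported: 905 kept their direction and side of the threshold, 38 lost significance, 14 gained it and 0 reversed. The count of ADAMTS genes lower with senescence in WT cells was 1 in place of 2 without the filter on low counts, because Adamts10 was lost (adjusted p 0.076), and it was 1 to 2 when a library was left out. The count of genes higher with senescence in KO cells, 1 as reported, was 0 to 1 without a library. The count of genes higher in the interaction, 0 as reported, was 1 (Adamts1, adjusted p 0.0208) without the filter and 0 to 1 without a library. The count of genes lower in KO control cells was 1 to 2 without a library, and Adamts5 was the gene lost. Adamts9 in WT cells, not past the threshold as reported, passed without the filter (0.36, adjusted p 0.00607) and in a fit of the 2 groups alone (0.33, adjusted p 0.0144). DESeq2 size factors ended the call of the Adamts2 interaction (−0.28, adjusted p 0.0619). The cause of these changes was not tested.

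The sources do not say whether replicate numbers pair the libraries, and correlations over 3 libraries per group cannot decide it. Deviations of same-numbered control and senescent libraries correlated at 0.0147 to 0.108 in WT and at −0.125 to 0.045 in KO cells. Not every library correlated best with its own number. With a replicate block common to both genotypes, 1 ADAMTS gene was lower in WT and 0 were higher in KO cells (Adamts10 adjusted p 0.0516, Adamts1 0.0604), and with a replicate block within each genotype 1 was lower in WT cells (Adamts10, 0.0579). Adamts9 in WT cells passed under both (0.0218 and 0.0366). Over all genes, those passing in the interaction numbered 3639 without a block, 3701 with the common block and 3244 with the block within genotypes.

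At 3 libraries per group and 12 to 81 reads per library, Adamts15 had the widest standard errors of the 10 genes.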
